A study of Macaca fascicularis with 2 samples.

Results

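A set of 10 genes whose products the egg stores for the early embryo, NLRP2, NLRP5, NLRP7, NLRP14, OOEP, TLE6, KHDC3L, PADI6, ZAR1 and KPNA7, were followed through the germ cells of the fetal ovary of Macaca fascicularis, the crab-eating macaque. They were chosen by name, and all are among the 18446 genes of the deposited count table. Together they hold 66191 of its 148824177 UMIs (unique molecular identifiers, each standing for 1 captured RNA molecule), from 224 for KHDC3L to 21569 for NLRP7. All cells were used, with those above 3000 detected genes.

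The subcortical maternal complex is a large protein assembly under the surface of the oocyte and the early embryo, where it is tied to the first cleavage divisions, to the storage of proteins and RNA and to the placing of organelles. OOEP, TLE6, NLRP5 and KHDC3L are its core, and NLRP2, NLRP7 and PADI6 are linked to it. Loss of such a gene in the mother can leave her own tissues normal and stop her embryos early. NLRP7 and KHDC3L are known from recurrent hydatidiform mole, a failed pregnancy with overgrown placental tissue. NLRP14, ZAR1 and KPNA7 are further genes of the maternal store: an NLRP family protein of germ cells, an RNA-binding zinc finger protein and the importin alpha of oocytes. In the ovary these RNAs are known from growing oocytes, so the question here is at which step of fetal germ cell development each one is first seen.

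The tissue came from 2 female fetuses, 1 at E84 and 1 at E116 (E, embryonic day), with no treatment or genotype named in the labels, and the dissociated cells of both ovaries of a fetus went into 1 droplet 3′ library. The table has 20967 cells with a median of 3756 UMIs, and its barcodes end in 1 or 2 with no record of which ending is which stage. The stages were therefore not compared: the table was read as a single pool, and the endings served as unlabelled batches. Without replicates no test was possible, and each interval below is a 95% interval for counting error only: exact Poisson for a level, exact binomial for a share and conditional exact binomial for a ratio. Levels are CPM, the UMIs of a gene per 1000000 UMIs summed over a group of cells.

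Cells were clustered without the 10 genes and were named from marker genes. Of 6279 germ cell-like cells, 254 were mitotic-like (NANOG, TFAP2C), 1468 RA-responsive-like (RA, retinoic acid; STRA8, ZGLP1, REC8), 1309 meiotic-like (SYCP1, SPO11, DMC1) and 799 oocyte-like (FIGLA, GDF9, ZP2), and 2449 stayed without a step. Every step marker found in the table was highest in its own step, which restates how the steps were named. In the oocyte-like cells the zona genes ZP2 and ZP4 were at 70.5 and 65.0 CPM, whereas BMP15, which growing oocytes secrete, was at 0.805 CPM. The endings were spread unevenly: 251 of the 254 mitotic-like cells have barcodes ending in 1, and 710 of the 799 oocyte-like cells have barcodes ending in 2. The median depth ranged from 2340.0 UMIs in oocyte-like to 11861.5 UMIs in mitotic-like cells. Libraries shared 27 barcodes, none of them in oocyte-like cells.

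All 10 genes had their highest level in the oocyte-like cells, above the other 3 steps and above each somatic class, while 24.6% of the 14063 genes with 100 or more UMIs were highest at this step of the 4. Summed over the 10 genes, mitotic-like cells had 388 CPM (368–409.5), RA-responsive-like cells 783 CPM (769–798), meiotic-like cells 281 CPM (270.0–293) and oocyte-like cells 3481 CPM (3446–3516). In all somatic cells together the sum was 61.1 CPM (59.5–62.7). From the meiotic-like to the oocyte-like step, 5 of the 10 genes were at least 4-fold higher after 10 CPM were added to each level, against 1.83% of all genes. The median log2 ratio on this scale was 2.76 for the 10 genes and −0.07 for all genes, and setting the group with 0 UMIs of TLE6 to 3 counts left it at 2.76. Relative to granulosa-like cells, the supporting cells around germ cells, 7 of the 10 were at least 4-fold higher, against 2.82% of all genes, with medians of 3.97 and −0.04. From mitotic-like to RA-responsive-like cells 0 of the 10 passed 4-fold, where 0.512% of all genes did. From RA-responsive-like to meiotic-like cells 0 of the 10 were 4-fold higher, where 0.576% of all genes were, and 1, NLRP7, was 4-fold lower, where 0.299% were. Among cells with barcodes ending in 1 the median for oocyte-like over meiotic-like cells was 0.42, from 89 oocyte-like cells, and with 3000 or fewer detected genes per cell it was 1.83. The order of the summed levels also turned with the ending. With barcodes ending in 1 the sum was 448 CPM in oocyte-like cells, under the 751 CPM of RA-responsive-like and above the 245 CPM of meiotic-like cells. With barcodes ending in 2 these sums were 3582, 844 and 325 CPM. Clusters were drawn from all other variable genes of the same cells, so these counts describe the groups and test nothing.

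**Figure D1:**
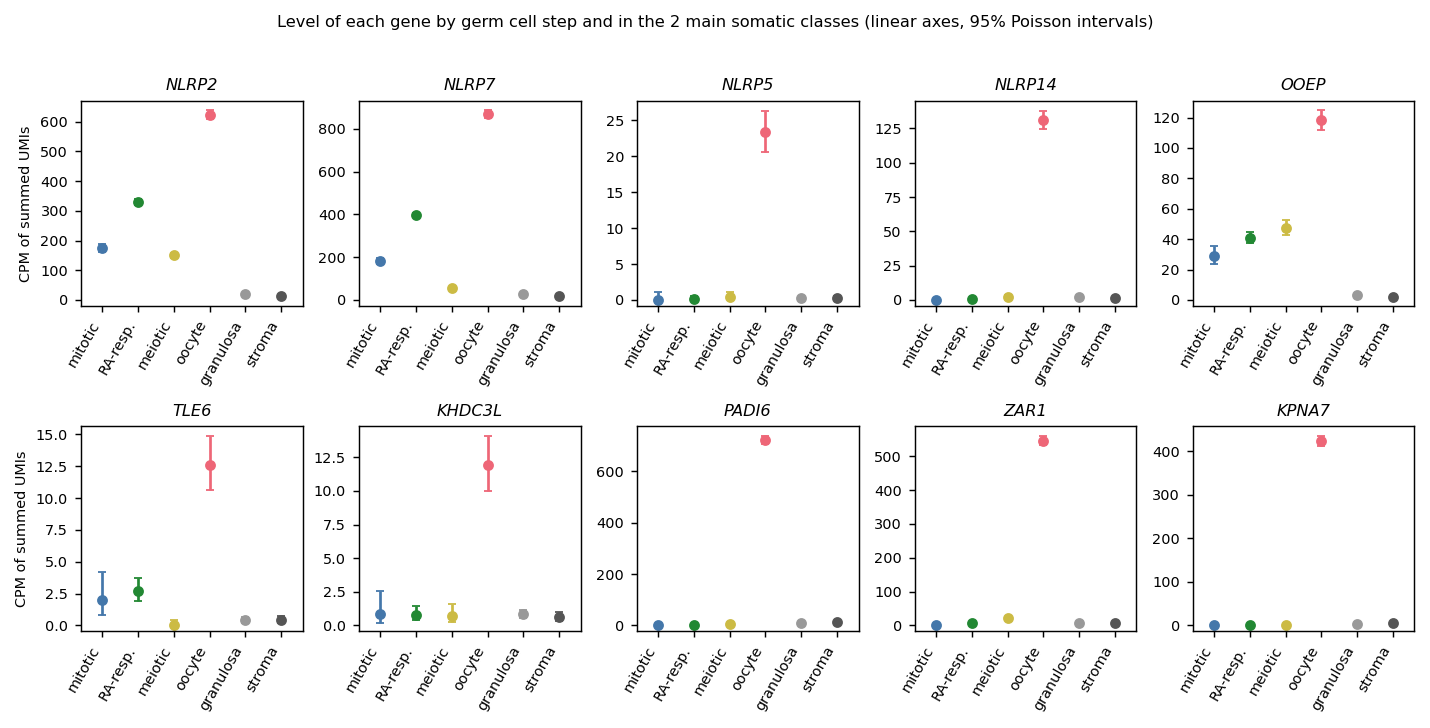
Level of each of the 10 genes (CPM of summed UMIs, linear axes that differ between panels) in the 4 germ cell steps, granulosa-like and stroma-like cells. Points are group levels and bars are 95% Poisson intervals. NLRP2 and OOEP stand above the plotted somatic classes at each step, NLRP7 dips to 54.4 CPM in meiotic-like cells beside 26.5 CPM in granulosa-like cells, and the other 7 lie near 0 on these axes before the oocyte-like step.

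Among the core genes, OOEP, which encodes a KH-domain protein of the complex, had the highest level at each step. It was at 28.9 CPM (23.6–35.2, 100 UMIs) in mitotic-like, 41.0 CPM (37.7–44.5, 565 UMIs) in RA-responsive-like, 47.6 CPM (43.0–52.5, 398 UMIs) in meiotic-like and 118 CPM (112–125, 1320 UMIs) in oocyte-like cells. Granulosa-like cells had 3.59 CPM (3.01–4.24) and stroma-like cells 1.95 CPM (1.44–2.58), so every germ cell step stood above them. Oocyte-like cells had 2.48-fold (2.22–2.79) the meiotic-like level over both endings. With barcodes ending in 1 the log2 ratio was 0.52 (−0.20 to 1.18), on 21 oocyte-like UMIs, and with barcodes ending in 2 it was 1.10 (0.89 to 1.32). Over both endings, the neighbouring steps before the oocyte-like step differed less. The log2 ratio was 0.50 (0.19 to 0.82) for RA-responsive-like over mitotic-like and 0.21 (0.02 to 0.40) for meiotic-like over RA-responsive-like cells. The latter turned with the ending, at −0.21 (−0.46 to 0.05) for barcodes ending in 1 and 0.89 (0.58 to 1.21) for those ending in 2. The former did too, at 0.76 (0.44 to 1.10) and −1.90 (−3.06 to −0.44), the last on 6 UMIs in 3 mitotic-like cells.

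TLE6, a relative of the Groucho corepressors and a core member of the complex, was low but not evenly so. It had 2.03 CPM (0.815–4.17, 7 UMIs) in mitotic-like and 2.69 CPM (1.89–3.70, 37 UMIs) in RA-responsive-like cells, then 0 UMIs among 8368744 in meiotic-like cells, where 3 counts over the group would be 0.358 CPM. Oocyte-like cells had 12.6 CPM (10.6–14.9, 141 UMIs), 35.2-fold the level of 3 counts in meiotic-like cells, and RA-responsive-like cells had 7.49-fold that level. The 35.2-fold mixes the endings: 140 of the 141 UMIs have barcodes ending in 2, as do only 256 of the 1309 meiotic-like cells. The 0 held in each of the 3 meiotic-like sub-clusters and in both endings. Granulosa-like cells had 0.393 CPM (0.220–0.648), and RA-responsive-like cells exceeded them in both endings, with log2 ratios of 2.79 (1.16 to 4.83) and 3.17 (2.05 to 4.37).

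NLRP5, known as MATER in the mouse, where it was an early example of a maternal-effect gene, was at 23.4 CPM (20.6–26.4, 261 UMIs) in oocyte-like cells. It had 0 UMIs in mitotic-like, 2 in RA-responsive-like and 3 in meiotic-like cells, levels whose intervals overlap the 0.262 CPM (0.126–0.482) of granulosa-like cells. All these NLRP5 UMIs have barcodes ending in 2, as do only 3 of the 254 mitotic-like cells. With barcodes ending in 1, NLRP5 was at 0% of the 10 genes' UMIs in germ cell-like and in somatic cells, so its order over the steps rests on 1 ending. KHDC3L, the other KH-domain gene of the core, was at 11.9 CPM (9.97–14.1, 133 UMIs) in oocyte-like cells and between 0.717 and 0.868 CPM at the 3 earlier steps, on 6, 11 and 3 UMIs in meiotic-like, RA-responsive-like and mitotic-like cells. Granulosa-like cells held 0.812 CPM (0.552–1.15) of it. Of all KHDC3L UMIs, 26.8% lay in somatic cells, against 6.86% to 14.2% for the other 9 genes. Of the core genes, OOEP was thus above the somatic level at every step. NLRP5, judged from barcodes ending in 2 alone, and KHDC3L were not seen above that level before the oocyte-like step. TLE6 was above the granulosa-like level in mitotic-like cells, on 7 UMIs, and in RA-responsive-like cells, but had 0 UMIs in meiotic-like cells.

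NLRP2 and NLRP7, neighbouring relatives of the NLRP family, were present from the start. NLRP2 was at 174 CPM (160.3–188, 601 UMIs) in mitotic-like, 330.3 CPM (321–340.0, 4550 UMIs) in RA-responsive-like, 150.2 CPM (142–159, 1257 UMIs) in meiotic-like and 623 CPM (609–638, 6966 UMIs) in oocyte-like cells. NLRP7 followed the order 181 CPM (167–196, 626 UMIs), 397 CPM (387–408, 5471 UMIs), 54.4 CPM (49.5–59.6, 455 UMIs) and 868 CPM (851–886, 9702 UMIs). For both, over both endings, RA-responsive-like cells stood above mitotic-like cells, meiotic-like cells were the lowest of the steps and oocyte-like cells the highest. No intervals overlapped, the closest being those of mitotic-like and meiotic-like cells for NLRP2. Within the endings NLRP2 did not separate these 2 steps beyond counting error. The log2 ratio of meiotic-like over mitotic-like cells was −0.06 (−0.22 to 0.10) with barcodes ending in 1. With barcodes ending in 2 it was −0.78 (−1.60 to 0.18), on 12 mitotic-like UMIs. For NLRP7 it was −2.78 (−3.07 to −2.50) and −1.57 (−2.34 to −0.69). RA-responsive-like over meiotic-like cells gave 2.20-fold (2.07–2.34) for NLRP2 and 7.30-fold (6.64–8.06) for NLRP7. Within the endings the log2 ratio was 3.82 (3.56 to 4.10) and 2.34 (2.17 to 2.51) for NLRP7 and 0.99 (0.87 to 1.10) and 1.35 (1.20 to 1.49) for NLRP2. Keeping only cells with 10% or less mitochondrial UMIs, clustered and named anew, brought the log2 ratio of NLRP7 to 1.60 and that of NLRP2 to 0.74. In meiotic-like cells with barcodes ending in 1, NLRP7 was at 26.2 CPM beside 24.9 CPM in granulosa-like cells of that ending, a log2 ratio of 0.07 (−0.23 to 0.37), so it was not seen above the somatic level there. With barcodes ending in 2 the levels were 88.4 and 27.6 CPM. NLRP2 stayed above granulosa-like cells in both endings, by 2.89 (2.71 to 3.08) and 2.74 (2.56 to 2.93). These 2 genes are close paralogs, and how reads that fit both were counted is not given in the sources used here, so a part of 1 gene's UMIs may belong to the other.

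That oocyte-like cells held more NLRP2 and NLRP7 than RA-responsive-like cells rests on 1 ending. With barcodes ending in 2, oocyte-like over RA-responsive-like cells had a log2 ratio of 0.94 (0.86 to 1.02) for NLRP2 and 1.00 (0.93 to 1.07) for NLRP7. With barcodes ending in 1 it was −0.89 (−1.27 to −0.53) and −1.70 (−2.18 to −1.26), from 89 oocyte-like cells with 64 and 41 UMIs. Over the meiotic-like level of this ending the log2 ratio was 2.12 (1.57 to 2.64) for NLRP7, from 26.2 to 114 CPM, and 0.10 (−0.29 to 0.47) for NLRP2. In this ending, 6 of the 10 genes were highest in oocyte-like cells, namely OOEP on 21 UMIs, TLE6 on 1, NLRP14 on 2, PADI6 on 9, ZAR1 on 18 and KPNA7 on 5. For OOEP the log2 ratio over RA-responsive-like cells of this ending was 0.32 (−0.39 to 0.95). The share of all genes highest at this step was not computed within the ending.

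NLRP14 was a late gene. It had 0 UMIs in mitotic-like, 7 in RA-responsive-like and 18 in meiotic-like cells, then 131 CPM (125–138, 1466 UMIs) in oocyte-like cells, 151-fold the level of 3 counts in mitotic-like cells. This fold mixes the endings: 1464 of the 1466 UMIs have barcodes ending in 2, as do only 3 of the 254 mitotic-like cells. Meiotic-like cells had 2.15 CPM (1.27–3.40) and granulosa-like cells 1.83 CPM (1.43–2.32). The log2 ratio of these was 2.44 (0.64 to 4.40) with barcodes ending in 1, on 8 and 5 UMIs, and −0.12 (−1.25 to 0.85) with barcodes ending in 2.

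PADI6, a member of the peptidylarginine deiminase family that oocytes need for their cytoplasmic lattices, was at 723 CPM (707–739, 8075 UMIs) in oocyte-like cells. It had 0 UMIs in mitotic-like cells, and the pooled oocyte-like level was 832-fold the level of 3 counts there. This fold mixes the endings: 251 of the 254 mitotic-like cells have barcodes ending in 1, and 8066 of the 8075 oocyte-like UMIs have barcodes ending in 2. RA-responsive-like and meiotic-like cells had 2.32 CPM (1.59–3.28) and 4.42 CPM (3.11–6.09). Granulosa-like cells had more, 10.9 CPM (9.92–12.0), so PADI6 was not seen above the somatic level at these steps. With barcodes ending in 2 the log2 ratios over granulosa-like cells were −1.52 (−2.09 to −0.99) and −0.95 (−1.49 to −0.46). With barcodes ending in 1 both steps and the granulosa-like cells had 1 UMI each. KPNA7, which carries proteins into the nucleus, was at 423 CPM (411–435, 4729 UMIs) in oocyte-like cells. It was at 0.289, 1.81 and 1.08 CPM in mitotic-like, RA-responsive-like and meiotic-like cells, beside 3.59 CPM (3.01–4.24) in granulosa-like cells over both endings. Of the 137 granulosa-like UMIs, 136 have barcodes ending in 2. In that ending the log2 ratio over granulosa-like cells was −0.27 (−0.96 to 0.37) for RA-responsive-like and −1.34 (−2.50 to −0.37) for meiotic-like cells. Oocyte-like over meiotic-like cells gave 163-fold (118–232) for PADI6 and 394-fold (207–861) for KPNA7, the latter on 9 UMIs in meiotic-like cells. As log2 ratios these were 7.35 and 8.62 over both endings. With barcodes ending in 2 they were lower, at 6.29 (5.82 to 6.81) and 7.52 (6.60 to 8.65). With barcodes ending in 1 the oocyte-like cells held 9 UMIs of PADI6 and 5 of KPNA7.

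ZAR1, which binds and stores maternal RNA, came in 1 step earlier. It was at 0.868 CPM (0.179–2.54, 3 UMIs) in mitotic-like, 6.61 CPM (5.32–8.11, 91 UMIs) in RA-responsive-like, 20.4 CPM (17.5–23.7, 171 UMIs) in meiotic-like and 546 CPM (532–560.0, 6102 UMIs) in oocyte-like cells, with 8.04 CPM (7.17–8.99) in granulosa-like cells. Meiotic-like cells stood above granulosa-like cells in both endings, by a log2 ratio of 2.63 (1.86 to 3.43) with barcodes ending in 1 and 1.44 (1.13 to 1.75) with barcodes ending in 2. RA-responsive-like cells did not do so beyond counting error in either, at 0.36 (−0.64 to 1.32) and 0.29 (−0.10 to 0.67).

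The mix of somatic UMIs was close to that of the germ cells of the same ending for most of the genes. PADI6 was at 0.0293 CPM in somatic cells with barcodes ending in 1 and at 15.8 CPM in those ending in 2, and its share of the 10 genes' UMIs was 0.0782% and 21.5% there, against 0.103% and 17.4% in the germ cell-like cells of these endings. NLRP2 had 40.5% and 19.8% of the somatic and 45.4% and 21.1% of the germ cell-like UMIs, and KPNA7 0.0782% and 7.68% against 0.0794% and 10.3%. KHDC3L took a larger share of the somatic than of the germ cell-like UMIs in both endings, 0.939% against 0.119% and 1.02% against 0.313%. So did TLE6, at 0.469% against 0.333% and 0.638% against 0.368%, and ZAR1, at 3.44% against 0.762% and 15.5% against 13.6%. NLRP14 did so with barcodes ending in 1 only, at 0.469% against 0.0873%. No interval was computed for these shares. With barcodes ending in 1 the somatic cells held 1278 UMIs of the 10 genes, so the small shares of PADI6, KPNA7, TLE6, KHDC3L and NLRP14 there rest on few UMIs. Whether such shares differ or are alike beyond counting error was not tested. The summed level in somatic cells was 37.5 and 73.7 CPM, in germ cell-like cells 488 and 1896 CPM. The source of the somatic UMIs was not tested.

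**Figure D2:**
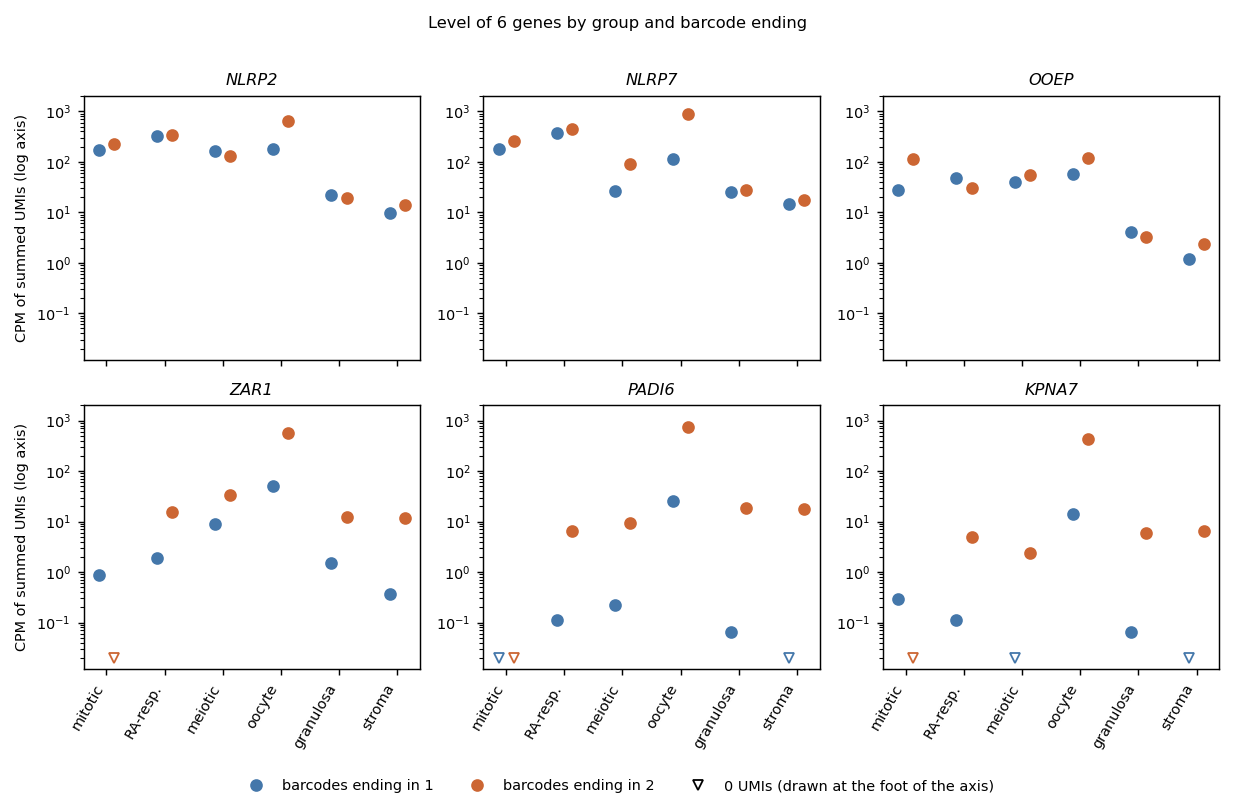
Level of 6 genes (CPM of summed UMIs, log axis) by group and barcode ending, with open triangles at the foot of the axis for groups with 0 UMIs. In somatic and RA-responsive-like cells, NLRP2 and OOEP differ less between endings than PADI6 and KPNA7 do, and PADI6 and KPNA7 of the RA-responsive-like and meiotic-like cells ending in 2 lie at or below the somatic cells of that ending.

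FIGLA, a transcription factor that starts the oocyte program, was at 2.32, 4.57, 125 and 542 CPM at the 4 steps, so meiotic-like cells already carried it. The deep meiotic-like sub-cluster (357 cells, median of 13986 UMIs) was split, after the levels above had been seen, into 204 cells with a FIGLA UMI and 153 without, with medians of 15959 and 11135 UMIs. NLRP7 was at 77.7 CPM in cells with FIGLA and at 20.4 CPM in cells without, a log2 ratio of 1.93 (1.44 to 2.46). ZAR1 was at 35.2 and 13.6 CPM, a log2 ratio of 1.38 (0.76 to 2.05), and OOEP at 66.4 and 36.0 CPM, a log2 ratio of 0.88 (0.49 to 1.29). NLRP2 went the other way, at 111 and 154 CPM with a log2 ratio of −0.46 (−0.68 to −0.24). PADI6 did not differ beyond counting error, at 0.37 (−0.82 to 1.68), and TLE6 had 0 UMIs in both sets.

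For ZAR1, OOEP and NLRP2 the direction was the same in both endings. The log2 ratio of ZAR1 was 1.93 (0.68 to 3.37) and 0.88 (0.16 to 1.67), that of OOEP 0.89 (0.28 to 1.52) and 0.86 (0.31 to 1.45), and that of NLRP2 −0.53 (−0.89 to −0.18) and −0.34 (−0.65 to −0.02). NLRP7 was higher with FIGLA only in cells with barcodes ending in 2, at 1.92 (1.32 to 2.57). With barcodes ending in 1 it was at 9.04 and 13.7 CPM, −0.60 (−1.99 to 0.71), both under the granulosa-like level of that ending. With barcodes ending in 2 the 2 paralogs thus went in opposite directions with FIGLA, and cells with a FIGLA UMI were also the deeper ones in both endings.

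**Figure D3:**
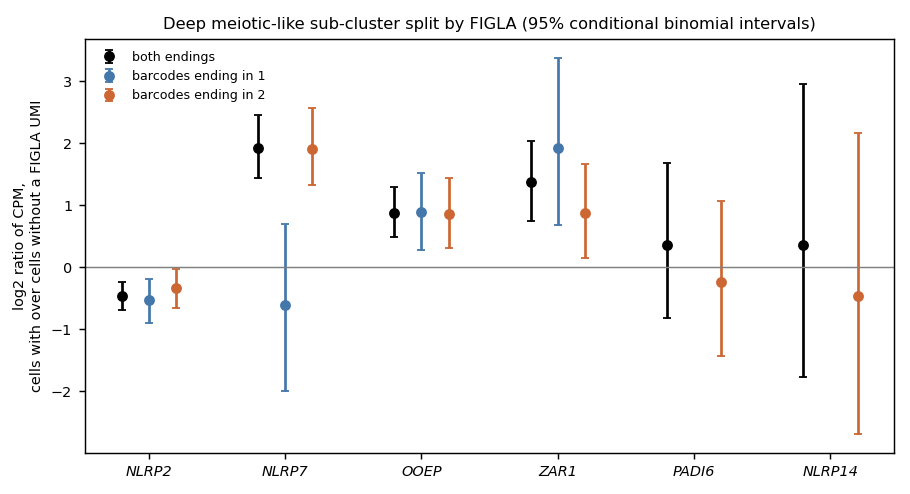
Log2 ratio of the level in cells with a FIGLA UMI over cells without, in the deep meiotic-like sub-cluster, for both endings together and for each ending. Bars are 95% conditional binomial intervals and points are missing where 1 side has 0 UMIs. ZAR1 and OOEP lie above 0 and NLRP2 below 0 in both endings, whereas NLRP7 lies above 0 only for barcodes ending in 2.

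Depth differed between the steps, so the comparison was repeated between the deeper sub-clusters. Their medians ran from 11861.5 UMIs (mitotic-like) over 13019 and 13572.5 (RA-responsive-like, mostly ending in 1 and mostly ending in 2) and 13986 (meiotic-like) to 18218 (oocyte-like, 313 cells). NLRP7 was at 181, 369, 452, 57.3 and 916 CPM in this order, and NLRP2 at 174, 329, 338, 126 and 654 CPM. ZAR1 was at 0.868, 2.21, 15.7, 27.5 and 583 CPM. The pattern over the steps was that of the whole steps for all 3. In the shallow oocyte-like sub-cluster (486 cells, median of 1169.5 UMIs) the levels were lower than in the deep one, at 402 CPM (365–443) for NLRP7, 275 CPM (244–309) for PADI6 and 186 CPM (161–214) for ZAR1, beside 916, 768 and 583 CPM.

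Within single cells, each thinned to 5000 UMIs, the genes parted in the same way. NLRP7 had a UMI in 49.2% (42.6–55.7%) of 236 mitotic-like, 79.7% (76.7–82.5%) of 789 RA-responsive-like, 12.0% (9.14–15.3%) of 460 meiotic-like and 84.6% (80.0–88.6%) of 293 oocyte-like cells. NLRP2 had 57.2% (50.6–63.6%), 75.9% (72.8–78.9%), 49.8% (45.1–54.4%) and 76.8% (71.5–81.5%). In granulosa-like cells the shares were 8.60% (7.52–9.79%) and 7.53% (6.51–8.65%) of 2430 cells. PADI6 was in 56.0% (50.1–61.7%) and KPNA7 in 65.9% (60.1–71.3%) of oocyte-like cells, against 1.74% (0.754–3.40%) and 0.217% (0.00550–1.21%) of meiotic-like and 3.29% (2.62–4.08%) and 1.40% (0.971–1.95%) of granulosa-like cells. Without thinning, PADI6 was in 45.9% of all 799 oocyte-like cells and in 5.68% of 6408 granulosa-like cells, at median depths of 2340.0 and 3697 UMIs. The cells too shallow for 5000 UMIs that were left out numbered 18, 679, 849 and 506 at the 4 steps.

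Cells with many of the 10 genes at once were mostly oocyte-like, 150 of the 155 thinned cells that had UMIs of 5 or more, and 4 others came from the unnamed germ cell-like cells. They made up 51.2% (45.3–57.1%) of thinned oocyte-like cells, against 0.127% (0.00321–0.704%) of RA-responsive-like, 0% (0–0.799%) of meiotic-like and 0% (0–1.55%) of mitotic-like cells. No thinned granulosa-like or stroma-like cell reached 5, among 2430 and 1574. Without thinning, the 313 cells of the deep oocyte-like sub-cluster had from 1 to 10 of the genes with a median of 6, and 20 of them had all 10. Among other cells with all their UMIs, the most genes in 1 cell were 6 for meiotic-like, 6 for RA-responsive-like, 4 for mitotic-like, 9 for unnamed germ cell-like and 7 for granulosa-like cells, and 7 for the unnamed somatic cluster. Unthinned, 8 of 6408 granulosa-like cells and 1 of 4558 stroma-like cells had 5 or more.

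**Figure D4:**
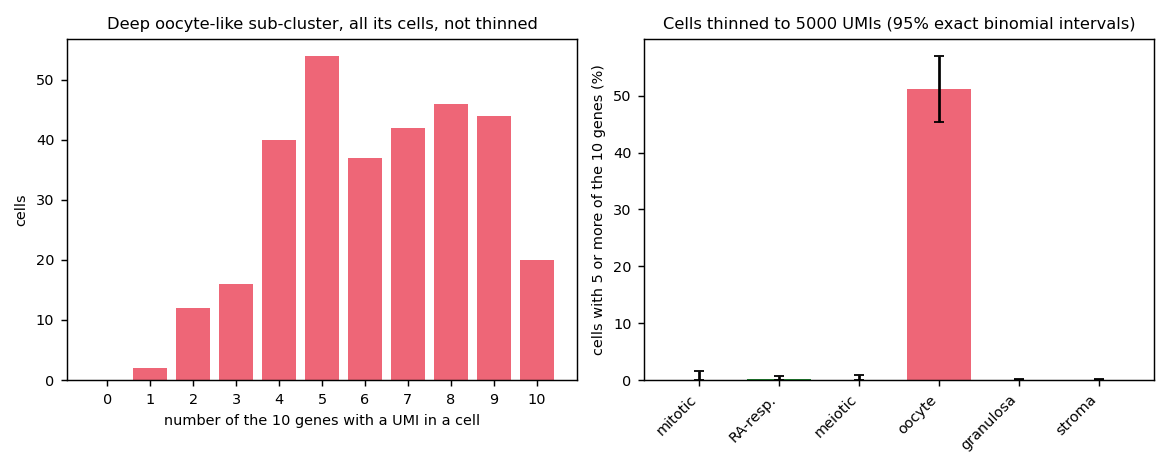
Left, number of cells of the deep oocyte-like sub-cluster by how many of the 10 genes have a UMI, not thinned. Right, share of cells with 5 or more of the 10 genes after thinning to 5000 UMIs, with 95% exact binomial intervals: 51.2% in oocyte-like cells and at most 0.127% in the other 5 groups.

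Oocyte-like cells differed widely among themselves. Per cell of the deep sub-cluster, PADI6 ran from 0 to 204 UMIs with a median of 4, and 92 of the 313 cells had none. KPNA7 ran from 0 to 174 (median 5), ZAR1 from 0 to 169 (median 5), NLRP7 from 0 to 132 (median 14) and NLRP2 from 0 to 119 (median 7). NLRP5, TLE6 and KHDC3L had a median of 0, with 204, 229 and 275 cells at 0. By the number of detected genes, PADI6 was at 420.3 CPM (364–482) in the 379 oocyte-like cells with 200 to 1000 genes, 480.4 CPM (414–554) in the 55 with 2000 to 3000, 377 CPM (329.6–429.6) in the 36 with 4000 to 5000 and 791 CPM (773–809.8) in the 148 with more than 5000. The level did not climb evenly, since the cells with 4000 to 5000 genes had less than those with 3000 to 4000, at 606 CPM (529–691), and 7 of these 36 cells and 1 of those 32 have barcodes ending in 1.

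Several of the genes were seen together from cell to cell. In the 244 deep oocyte-like cells thinned to 5000 UMIs, PADI6 was seen in 72.6% (65.3–79.0%) of cells with KPNA7 and in 24.6% of cells without, and in 86.2% (77.1–92.7%) of cells with NLRP14 and 43.9% of those without. The early genes NLRP2 and NLRP7 went along, with PADI6 in 66.2% (59.1–72.7%) of cells with NLRP2 against 28.3% without, and in 62.6% (55.8–69.1%) of cells with NLRP7 against 33.3% without. For OOEP the shares lay closer, at 61.7% (51.1–71.5%) and 57.3%. NLRP5, TLE6 and KHDC3L were in 21, 12 and 9 of the 244 cells, too few to judge whether they go together. NLRP5 was in 0% (0–26.5%) of cells with TLE6 and 9.05% of those without. It was in 0% (0–33.6%) of cells with KHDC3L and 8.94% of those without, so both intervals include the share without.

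For the cells of this sub-cluster with 5000 or more UMIs, split after these values had been seen, 172 had a PADI6 UMI and 72 had none. The 72 were shallower, with a median of 19452.5 against 47813 UMIs, and 11 of them and 1 of the 172 have barcodes ending in 1. Cells with PADI6 had more of every other member, by a log2 ratio of 3.48 (2.91 to 4.11) for NLRP14, 2.41 (2.21 to 2.61) for ZAR1, 2.10 (1.90 to 2.31) for KPNA7, 2.00 (1.17 to 2.97) for NLRP5, 2.65 (1.26 to 4.55) for TLE6, 1.44 (1.30 to 1.58) for NLRP2, 0.99 (0.89 to 1.09) for NLRP7 and 0.61 (0.35 to 0.87) for OOEP. KHDC3L had 121 UMIs in cells with PADI6 and 1 in cells without. FIGLA was lower in cells with PADI6, at 535 against 711 CPM, and so was SYCP1, a protein of the synaptonemal complex that holds paired chromosomes in meiosis, at 21.3 against 139.8 CPM. ASTL, which encodes an egg protease, stood at 738 and 68.1 CPM and GDF9, an oocyte growth factor, at 399 and 233 CPM. The oocyte-like cells without PADI6 thus had NLRP2, NLRP7 and OOEP at 268, 501 and 85.9 CPM, and also KPNA7, ZAR1, NLRP14 and NLRP5 at 119, 127, 14.8 and 7.11 CPM, all 7 above their meiotic-like levels.

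**Figure D5:**
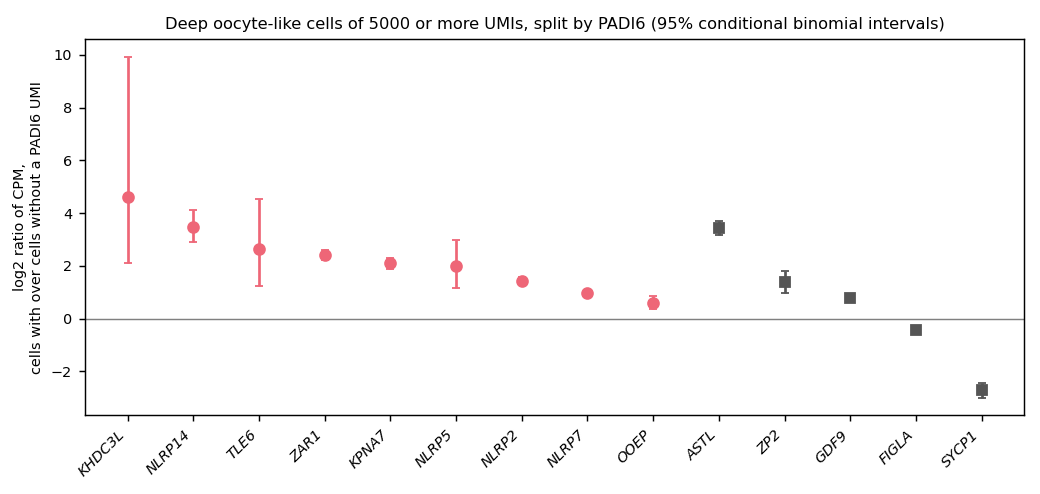
Log2 ratio of the level in cells with a PADI6 UMI over cells without, in deep oocyte-like cells of 5000 or more UMIs. Circles are the other 9 genes and squares are 5 further oocyte and meiosis genes, with 95% conditional binomial intervals. The 9 genes lie above 0, from 0.61 for OOEP to 4.63 for KHDC3L, while FIGLA and SYCP1 lie below it.

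Markers of other cell types were looked at in the same cells. In oocyte-like cells the 10 granulosa markers summed to 53.8 CPM, beside 1076 CPM in granulosa-like cells, and the 10 stroma markers to 201 CPM, all of them detected. The endothelial list summed to 728 CPM, of which VWF gave 607 and EGFL7 108 CPM, while the other 7 were at 9.67 CPM or less with CLDN5 at 0. The macrophage list summed to 345 CPM, of which CSF1R gave 342 CPM, and C1QA was at 0. HBB was among the 10 leading genes of a shallow meiotic-like sub-cluster, and the erythroid list summed to 309 CPM in all oocyte-like cells but to 43.2 CPM in those above 3000 genes. Of the unnamed germ cell-like cells, 466 form a deep sub-cluster with as many granulosa as stroma markers, where the 10 genes summed to 472 CPM (459–484). They entered no step, and their part in the results was not tested.

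Other genes of the same families and of the maternal store were read from fixed lists. Of 26 further complex and maternal-effect genes with 100 or more UMIs, 15 were highest in oocyte-like cells, 5 in meiotic-like, 4 in RA-responsive-like and 2 in mitotic-like cells. From the meiotic-like to the oocyte-like step 3 of the 26 were at least 4-fold higher and 1 was at least 4-fold lower, where 1.83% of all genes were 4-fold higher and 1.3% were 4-fold lower. The level of WEE2, a kinase that holds oocytes in arrest, went from 0.717 CPM (meiotic-like) to 113 CPM (oocyte-like), and that of NPM2, a chromatin protein of eggs, from 3.82 to 116 CPM. TRIM28, which guards imprints and had the most UMIs of the list, peaked in RA-responsive-like cells with 272 CPM, beside 176 CPM in oocyte-like cells. UCHL1, a ubiquitin hydrolase, had 182 and 414 CPM in these groups. The median log2 ratio of the list for this step, after adding 10 CPM, was 0.28.

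In the NLRP family, 6 other genes passed 100 UMIs and 4 of them were highest in oocyte-like cells. NLRP4, NLRP11 and NLRP13 were at 77.9, 72.2 and 21.7 CPM there, with 1 UMI each in meiotic-like and 0 UMIs each in mitotic-like cells, the pattern of NLRP5 and NLRP14 rather than of NLRP2 and NLRP7. NLRX1, a mitochondrial member of the wider family, was at 2.51 CPM in oocyte-like and 14.3 CPM in granulosa-like cells. Among 7 importin genes beside KPNA7, 1 was highest in oocyte-like cells. This was KPNA6, with 50.7 CPM there. KPNA2 peaked in RA-responsive-like cells with 572 CPM, beside 239 CPM in oocyte-like cells, and KPNB1, the importin beta partner, had 372 CPM in meiotic-like and 357 CPM in oocyte-like cells.

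Of the 5 TLE relatives 2 were highest in oocyte-like cells, TLE2 and TLE4, and TLE5, with the most UMIs, had 37.0 CPM in mitotic-like cells, 12.3 CPM in oocyte-like cells and 204 CPM in granulosa-like cells. The 1 PADI relative with 100 UMIs, PADI4, was at 5.01 CPM in oocyte-like cells. The KH-domain relatives of OOEP and KHDC3L did not share their peak. KHDC1L was highest in mitotic-like cells, at 51.8 CPM beside 12.5 CPM in oocyte-like cells, KHDC4 likewise at 33.0 beside 12.9 CPM, and DPPA5 in meiotic-like cells, at 89.5 beside 32.4 CPM.

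In the RefSeq gene table of the macaque assembly T2T-MFA8v1.1, which is not the build of the counts and was used for gene order only, all 10 genes were found. NLRP2 and NLRP7 are direct neighbours among protein-coding genes on chromosome 19, and OOEP and KHDC3L on chromosome 4, with DPPA5 next to KHDC3L. NLRP2 and NLRP7 followed each other (r = 0.93 between log2 levels over 12 germ cell sub-clusters and 8 somatic groups), whereas OOEP and KHDC3L did less (r = 0.61). OOEP was closer to NLRP2 (r = 0.95), and PADI6 was closer to KPNA7 (r = 0.98) than to NLRP2 (r = 0.28).

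By the same measure over these 20 groups, which share 2 libraries and differ in depth, the genes most like each member were AURKC (r = 0.96) for NLRP2, HABP4 (0.94) for NLRP7, EIF4E1B (0.99) for NLRP5 and F10 (0.99) for NLRP14. For OOEP it was YBX2 (0.98), for TLE6 GDA (0.96), for KHDC3L GAD1 (0.98) and for ZAR1 NTNG2 (0.98). Genes listed under an identifier alone led for PADI6 and KPNA7, where the closest named genes were CCDC146 (0.98) and LMOD3 (0.99). YBX2, which packs stored RNA in germ cells, and AURKC, a meiotic kinase, are like OOEP and NLRP2 seen well before the oocyte-like step, at 10.7 and 21.7 CPM in mitotic-like cells.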

How the data were processed

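The authors aligned the droplet 3′ reads to Macaca_fascicularis_5.0 with Cell Ranger 3.0.2 and deposited raw UMI counts of both libraries in a single table. The study's methods kept cells with 200 to 3000 detected genes, whereas the deposited counts hold cells above 3000 genes, which were kept here. No cell could be tied to a stage, so no test was run and no p-value is given. The 10 genes and all gene lists were chosen with earlier results of these data known.

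Cells were clustered in Seurat 5.3.0 (R 4.3.3) on 2000 variable genes without the 10 genes and their relatives, with 18 principal components, 20 neighbours and a resolution of 0.6, and the germ cells were then sub-clustered, raising the resolution until 11 or more sub-clusters were reached. A cluster was named from the marker list with most genes 1.5-fold above the other cells and in 5% of its cells, if these were at least 3 with no tie. Germ cell step lists were counted toward the germ cell name, which was set after the data had been seen. Scrublet in scanpy 1.11.5 called 0 doublets and so did not work, and removing the 8% highest scores was an alternative only.

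UMIs were summed per group as CPM. A gene was called at 4-fold or more between levels with 10 CPM added, among genes with 100 or more UMIs in the table. Where a group had 0 UMIs, a fold was computed against 3 counts over the group, without the counting error of the other group. Shares of cells were taken after thinning each cell to 5000 UMIs, since depth differed between groups. Named genes were the 10, up to 4 examples per list (those with most UMIs and those highest in oocyte-like cells), and the 3 genes with the highest Pearson correlation of log2(CPM + 10) to each of the 10. FIGLA, PADI6, SYCP1, ASTL, GDF9 and the somatic markers named one by one were chosen after their values had been seen. The counting routines were tested on simulated data. No promoter or protein sequences were used here.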

Additional observations from a re-analysis of the deposited data

How the results depend on the processing

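All 10 genes stayed highest in oocyte-like cells under each alternative but 1. With barcodes ending in 1 only, 6 did, and the share of all genes highest at this step was not recomputed for that ending. There the median log2 ratio of the 10 was 0.42 for oocyte-like over meiotic-like and 1.52 for oocyte-like over granulosa-like cells, KHDC3L turned to −0.12 with 0 UMIs in the 89 oocyte-like cells, and the log2 ratio of RA-responsive-like over meiotic-like cells was 3.82 for NLRP7 and 0.99 for NLRP2. With barcodes ending in 2 only, these were 2.34 and 1.35. With 3000 or fewer genes per cell, the medians were 1.83 and 2.999 and the ratios of NLRP7 and NLRP2 were 3.12 and 0.90. Cells with 10% or less mitochondrial UMIs were clustered and named anew, and 93 of them were named oocyte-like, beside 799 in the main clustering. The 93 are thus not a count of the 799 that pass this limit. The granulosa-like median was then 3.62 and the ratios were 1.60 and 0.74. Averaging the CPM of single cells gave medians of 2.17 and 3.14 and ratios of 3.23 and 1.02, and a pseudocount of 1 gave medians of 4.07 and 4.91. The granulosa-like median was 3.79 at a resolution of 0.4 and 4.11 at 1.0. Without the 8% highest doublet scores 1208 cells were oocyte-like and it was 3.81. With cells of 5000 or more UMIs, an alternative chosen after seeing the data, it was 4.15 and 293 cells were oocyte-like. The causes were not tested. Of 75 recomputed main values 47 stayed within the counting interval or 1.5 times the count, and of 120 for single genes 82 did and 1 changed sign. No paired analysis was possible because the columns name no sample. Depth limits NLRP5, TLE6 and KHDC3L most, with under 300 UMIs each in the table.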
